A study of Mus musculus with 23 samples.

Results

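The transcripts of 10 genes of the glutathione and thioredoxin systems were examined in TM4 cells, an immortalized mouse Sertoli cell line, after 48 hr with a plasticizer or with its vehicle. The genes were Gclc, Gclm, Gss, Gsr, Slc7a11, Txn1, Txnrd1, Srxn1, Prdx1 and G6pdx, taken as all non-control probes whose transcript belongs to one of them. They were measured by 12 of the 55681 non-control probes of the array, with 2 probes each for Gsr and Prdx1, and stood among 20145 named genes. All 12 probes were well above background on 23 of 23 arrays, so no member was lost to the filter on dim probes.

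Cells received 100 μM of mono(2-ethylhexyl) phthalate (MEHP), diisononyl cyclohexane dicarboxylate (DINCH), dioctyl maleate (DOM), butanediol dibenzoate (BDB) or dioctyl succinate (DOS). All of these groups and the control group (DMSO) carried 1% DMSO. There were 4 replicates in each group and 3 of DOS (replicates 1, 3 and 4), each on its own 1-colour array, which the series' design text calls biological replicates. All come from 1 cell line, so the p-values measure the spread between its cultures. A level below is the log2 of the processed intensity minus the 75th percentile of its array, and a difference is one of these levels minus another. A call needed a probe of the gene to differ by over 1.5-fold at a limma adjusted p under 0.05.

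The 23 arrays lay on 3 slides, each with arrays of at least 5 of the 6 groups. A slide held only 1 or 2 arrays of a group, so each difference within a slide below rests on that few. DMSO, DOM and DOS arrays lay in positions 2 and 4 of a slide, and MEHP, DINCH and BDB arrays in positions 1 and 3, so for the latter 3 position and compound cannot be told apart in the comparison with DMSO. Of 12 Sertoli cell markers examined, Dhh, Gata4, Inhbb and Kitl were well above background on 23 of 23 arrays. Wt1, Fshr and Cldn11 were above it on 0 arrays, as were the germ cell markers Ddx4 and Dazl and the leukocyte markers Ptprc and Adgre1. The peritubular markers Acta2 and Cnn1 were above it on 23 arrays and Myh11 on 0. The Leydig cell marker Cyp17a1 was above it on 23 arrays, Star on 12, and Cyp11a1 and Hsd3b1 on 0. The endothelial marker Pecam1 was above it on 23 arrays and Cdh5 on 0, and the germ cell marker Sycp3 on 4. Of the other Sertoli cell markers, Rhox5 was above it on 21 arrays, Sox9 on 20, Clu on 12, and Amh and Trf on 1 each. With DOM, the Sertoli cell markers Inhbb (1.61) and Sox9 (-0.92) and the peritubular marker Cnn1 (-1.21) were called, as was the Sertoli cell marker Dhh with DINCH (1.09), and their part in the results for the members was not tested. The summed level of the 4 Sertoli cell markers ran from 3.74 to 4.76 in DMSO, 5.40 to 6.08 in DOM and 3.70 to 4.21 in DINCH, and that of the 2 peritubular markers from 4.92 to 5.27, 5.19 to 5.61 and 5.16 to 5.67. The peritubular sum lay below DMSO in MEHP (4.61 to 4.73) and above it in DOS (5.57 to 6.04). In BDB it ran from 5.01 to 5.41, and its part in the results was not tested. The 4 Sertoli cell markers in the sum did not move one way with DOM, since Inhbb was called higher while the values of Gata4 (0.49), Kitl (-0.61) and Dhh (-0.39) were not called. In a bulk culture, fewer cells with a transcript and less of it per cell cannot be told apart.

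Glutathione is the main small thiol of the cell, and it is made in a short pathway. The antiporter subunit Slc7a11 imports cystine, Gclc and Gclm form the glutamate-cysteine ligase that joins the first 2 amino acids, and Gss adds glycine. Gsr returns oxidized glutathione to its reduced form with NADPH, which G6pdx supplies from glucose 6-phosphate. In the thioredoxin system, Txnrd1 uses NADPH to reduce thioredoxin (Txn1), which in turn reduces peroxiredoxins such as Prdx1, and Srxn1 repairs peroxiredoxins that were overoxidized. Many of these genes are known targets of NRF2, a transcription factor that binds antioxidant response elements, and Slc7a11 is also a known target of ATF4, which binds amino acid response elements. In the testis, Sertoli cells support the germ cells and glutathione is part of their defence against oxidants.

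The promoters of 4 members are shown because their transcripts moved apart, with Gclm and Srxn1 raised by DOM, Slc7a11 lowered by DINCH, and Prdx1 called for none of the compounds. Each window is the 250 bases before the gene's start in RefSeq on GRCm38.p6, written 5′ to 3′ along the gene. Gclm lies on the plus strand at chr3:122245307-122245556, Srxn1 on the plus strand at chr2:152105274-152105523, Slc7a11 on the minus strand at chr3:50443614-50443863 and Prdx1 on the plus strand at chr4:116685349-116685598. Capitals mark a match, on either strand, to the antioxidant response element core TGACNNNGC, the AP-1 element TGANTCA or the amino acid response element core TGATGNAA, and the first of these can overlap the AP-1 element.
Gclm: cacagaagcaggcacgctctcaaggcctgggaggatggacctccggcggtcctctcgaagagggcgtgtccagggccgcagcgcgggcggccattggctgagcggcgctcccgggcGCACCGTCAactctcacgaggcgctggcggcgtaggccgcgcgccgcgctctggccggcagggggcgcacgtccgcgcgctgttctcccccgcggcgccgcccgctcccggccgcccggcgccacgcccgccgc
Srxn1: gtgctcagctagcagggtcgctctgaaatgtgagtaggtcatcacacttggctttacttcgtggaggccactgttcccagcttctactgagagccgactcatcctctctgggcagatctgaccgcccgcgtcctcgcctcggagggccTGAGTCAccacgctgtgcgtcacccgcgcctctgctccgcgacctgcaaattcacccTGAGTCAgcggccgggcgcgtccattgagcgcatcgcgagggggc
Slc7a11: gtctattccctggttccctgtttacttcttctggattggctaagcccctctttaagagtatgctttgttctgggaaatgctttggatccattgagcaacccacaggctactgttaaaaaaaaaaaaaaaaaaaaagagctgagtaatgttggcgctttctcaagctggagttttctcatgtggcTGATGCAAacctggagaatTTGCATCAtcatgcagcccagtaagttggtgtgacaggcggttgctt
Prdx1: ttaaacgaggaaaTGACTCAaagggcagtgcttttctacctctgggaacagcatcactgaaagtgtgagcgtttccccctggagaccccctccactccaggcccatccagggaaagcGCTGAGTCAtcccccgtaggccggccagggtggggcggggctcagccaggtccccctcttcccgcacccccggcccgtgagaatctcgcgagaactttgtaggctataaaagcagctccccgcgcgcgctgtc

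The Gclm window held 1 antioxidant response element core, from 134 to 126 bases before the start, and the Prdx1 window held 1 as well, from 133 to 125, where it overlapped 1 of its 2 AP-1 elements. Srxn1 held 2 AP-1 elements and no antioxidant response element core of these letters in this window. Slc7a11 held 2 amino acid response element cores, from 66 to 59 and from 47 to 40 bases before the start. Of 32851 such windows of all genes, 10.2% held the antioxidant response element core, 6.75% the AP-1 element and 3.45% the amino acid response element core. G6pdx and 1 of the 3 Txnrd1 windows held the first of these, and Gss and Txn1 held none of the 3. RefSeq windows were matched for 8 of the 10 members, Gclc and Gsr being those without one.

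DOM raised Gclm and Srxn1, each by close to 2-fold. Of the 10 members these 2 were called higher and 0 were called lower, beside 9.9% of all genes tested called higher and 10.6% called lower for this compound. Txnrd1, Gsr and G6pdx were also higher at an adjusted p below 0.05, by less than 1.5-fold. At any fold, then, 5 of the 10 members were higher and 0 lower at that p, beside 18.9% and 19.8% of all genes. Without the filter on dim probes Txnrd1 had a limma adjusted p of 0.0554, so this count rests in part on that filter. The median member difference was 0.12, against -0.03 over all genes tested.

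Gclm is the modifier subunit that makes the ligase more efficient. Its level was 0.76, 0.35, 0.33 and 0.47 in DMSO replicates 1 to 4, and 1.74, 1.28, 1.55 and 1.13 in DOM replicates 1 to 4. Every DOM array stood above every DMSO array. The mean rose from 0.48 ± 0.20 (SD, n = 4) to 1.43 ± 0.27 (SD, n = 4), a difference of 0.95 (SE 0.16, 95% interval 0.60 to 1.30), or 1.93-fold, with a limma adjusted p of 0.00234. Within slides 1, 2 and 3 the difference was 0.75, 1.21 and 0.67, and with slide as a block it was 0.90 (limma adjusted p = 0.00451).

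Srxn1, the sulfiredoxin, had levels of 4.22, 4.57, 4.52 and 4.44 in DMSO replicates 1 to 4 and 5.41, 5.38, 5.49 and 5.35 in DOM replicates 1 to 4. The 4 DOM arrays lay close together and above all control arrays. The difference was 0.97 (SE 0.10, 95% interval 0.74 to 1.20), or 1.96-fold, with a limma adjusted p of 0.000403. It was 1.18, 0.94 and 0.91 within slides 1, 2 and 3, and 1.02 with slide as a block (limma adjusted p = 0.00069). DOM and DMSO shared their positions on the slides, and with position as a block both Gclm (limma adjusted p = 0.00435) and Srxn1 (limma adjusted p = 0.00105) were still called.

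The 3 smaller differences under DOM were in the reductases that draw on NADPH and in the first enzyme of the pentose phosphate pathway. Txnrd1 had levels of 5.31, 4.98, 4.96 and 5.15 in DMSO replicates 1 to 4 and 5.67, 5.62, 5.54 and 5.70 in DOM replicates 1 to 4, with no overlap, and a difference of 0.53 (SE 0.11, limma adjusted p = 0.00576). After quantile normalization the Txnrd1 difference was 0.68 and without DMSO replicate 1 it was 0.60, both past 1.5-fold. Gsr was 0.45 higher (SE 0.11, limma adjusted p = 0.0164) on its brighter probe and 0.43 higher (limma adjusted p = 0.0168) on the other, so its 2 probes gave like values. G6pdx was 0.26 higher (SE 0.08, limma adjusted p = 0.0383), with DOM arrays between 5.10 and 5.17 and DMSO arrays between 4.79 and 4.93.

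Gclc, the catalytic subunit of the ligase, showed no such rise with DOM. It had levels of 2.98, 2.45, 2.68 and 2.84 in DMSO replicates 1 to 4 and 2.74, 2.71, 2.60 and 2.57 in DOM replicates 1 to 4, which overlap. The difference was -0.08 (95% interval -0.36 to 0.20, limma adjusted p = 0.648), so a rise of the size seen for Gclm lies outside the interval. A comparison of the 2 subunits within each array was added after these values were seen. The level of Gclm minus that of Gclc was -2.26 ± 0.13 (SD, n = 4) in DMSO and -1.23 ± 0.24 (SD, n = 4) in DOM, a difference of 1.03. The pair was picked for this pattern, so the value is a description with no test. The same difference was 0.31 for MEHP, 0.13 for DINCH, 0.03 for BDB and 0.06 for DOS.

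The other 4 members gave no call for DOM. Gss differed by -0.02, Slc7a11 by -0.19, Prdx1 by -0.13 on its brighter probe and Txn1 by -0.24 (limma adjusted p = 0.144). After quantile normalization the Txn1 difference was -0.02.

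**Figure D1:**
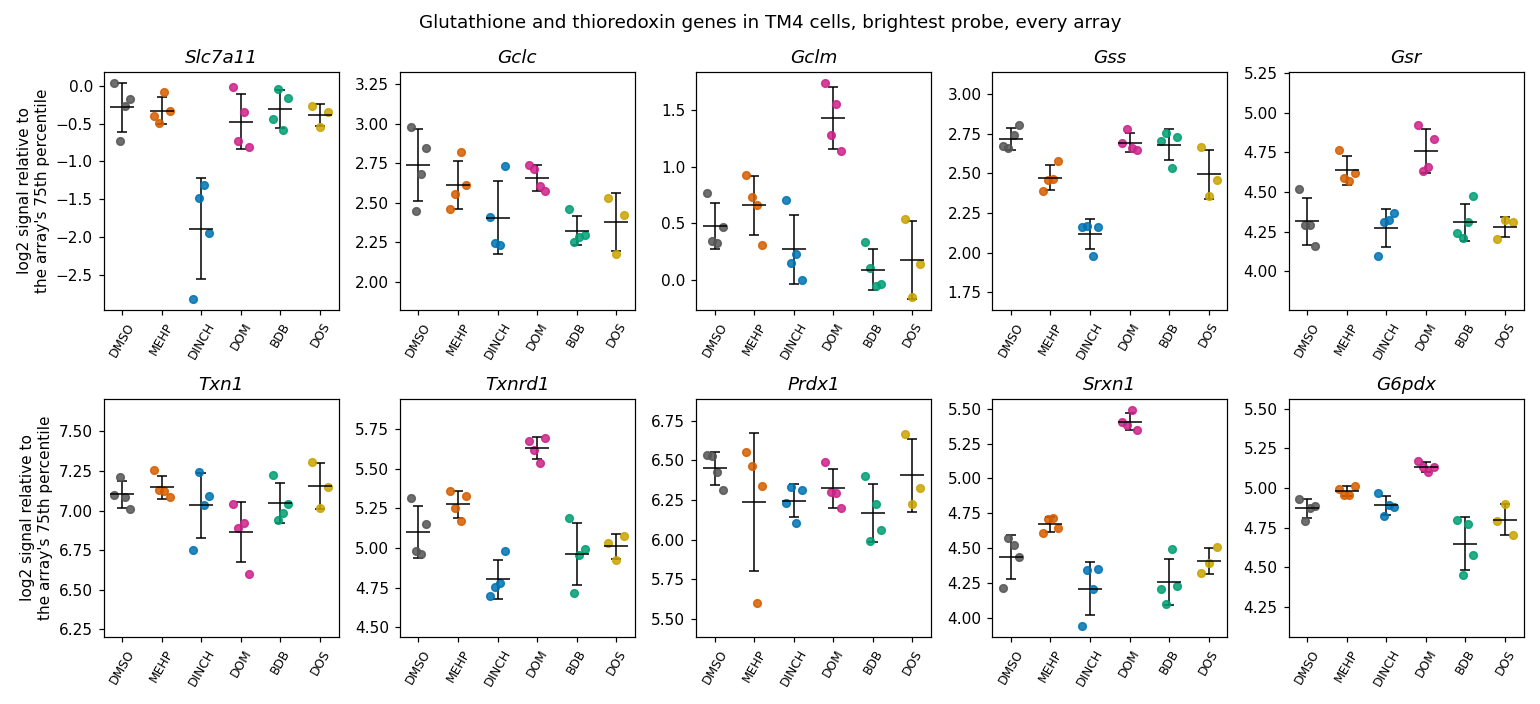
Level of each member (log2 intensity minus the array's 75th percentile, y axis) on each array, by group (x axis), with the brighter probe shown for Gsr and Prdx1. Points are arrays and bars are group means ± SD. The 4 DOM arrays of Gclm (1.13 to 1.74) and of Srxn1 (5.35 to 5.49) lie above all DMSO arrays, and the 4 DINCH arrays of Slc7a11 (-2.81 to -1.32) lie below all others.

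DINCH lowered Slc7a11 and Gss, the cystine importer subunit and the glutathione synthetase, which stand at the start and the end of glutathione synthesis. These were 2 of the 10 members called lower and 0 were called higher, beside 4.02% of all genes tested called lower and 4.25% called higher. The median member difference was -0.22, with 1 of the 10 members above 0, against a median near 0 over all genes tested, of which 49.9% were above 0. Against the same DMSO arrays, 0 of the 10 members were above 0 with BDB, 1 with DOS, 5 with DOM and 6 with MEHP.

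Slc7a11 had levels of 0.03, -0.73, -0.26 and -0.17 in DMSO replicates 1 to 4 and -2.81, -1.48, -1.32 and -1.94 in DINCH replicates 1 to 4. All DINCH arrays were below all control arrays. DINCH replicate 1 was the lowest, with a processed intensity of 29.1 where the other DINCH arrays lay between 63.1 and 117. The difference was -1.60 (SE 0.31, 95% interval -2.30 to -0.91), a 3.04-fold fall, with a limma adjusted p of 0.0147. Within slides 1, 2 and 3 it was -2.85, -0.99 and -1.46, and -1.66 with slide as a block (limma adjusted p = 0.0209). With normexp background correction the Slc7a11 difference shrank to -1.02 and was still called (limma adjusted p = 0.00172). Without DINCH replicate 1 it was -1.30 (SE 0.21) and still called (limma adjusted p = 0.0164).

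Gss had levels of 2.67, 2.66, 2.74 and 2.80 in DMSO replicates 1 to 4 and 2.16, 2.17, 1.98 and 2.16 in DINCH replicates 1 to 4, again with no overlap. The difference was -0.60 (SE 0.09, 95% interval -0.81 to -0.40), or 1.52-fold, just past the fold threshold, with a limma adjusted p of 0.00686. Within slides 1, 2 and 3 it was -0.51, -0.53 and -0.73, and -0.60 with slide as a block (limma adjusted p = 0.0115). Without DMSO replicate 4 or without DINCH replicate 3 the Gss difference was -0.57 or -0.55, under 1.5-fold, and the call was lost. Both calls for DINCH were also lost when dim probes were kept in the test, at a limma adjusted p of 0.0973 for Slc7a11 and 0.0799 for Gss.

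The remaining members gave no call for DINCH. Gclc differed by -0.33 (limma adjusted p = 0.203) and Gclm by -0.21 (0.488), while Txnrd1 differed by -0.30 (0.132) and Srxn1 by -0.23 (0.301). Prdx1 differed by -0.20 on its brighter probe and by -0.03 on the other. Gsr, Txn1 and G6pdx differed by -0.04, -0.07 and 0.02.

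MEHP, BDB and DOS gave 0 calls among the 10 members by limma, beside 1.68%, 0% and 0% of all genes called. At an unadjusted p below 0.05 there were 3, 3 and 1 of the 10 members, beside 18.9%, 16.3% and 6.34% of all genes. With MEHP the largest differences were in Gsr, at 0.32 (SE 0.10, limma adjusted p = 0.136), Gss, at -0.24 (0.152), and Srxn1, at 0.23 (0.263). The MEHP arrays did not overlap the DMSO arrays in 4 of the 10 members, these 3 and G6pdx (0.11), beside 14.4% of all genes, and the second Gsr probe (0.25) overlapped. MEHP replicate 3 stood apart in the brighter Prdx1 probe, with a level of 5.60 where the other MEHP arrays lay between 6.34 and 6.55.

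With BDB the brightest probes of all 10 members were below DMSO, none past the threshold, with a median difference of -0.16, beside a median of -0.03 over all genes tested, of which 42.8% were above DMSO. Gsr differed by -0.01 on its brighter probe and by 0.09 on the other. Both ligase subunits had the largest differences, at -0.42 for Gclc (SE 0.12, limma adjusted p = 0.171) and -0.39 for Gclm (SE 0.13, limma adjusted p = 0.211). With DOS the median was -0.08. The DOS difference in Gclc was -0.36 (limma adjusted p = 0.689) and that in Srxn1 was -0.03 (95% interval -0.30 to 0.24), an interval that leaves out a change of the size DOM gave.

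**Figure D2:**
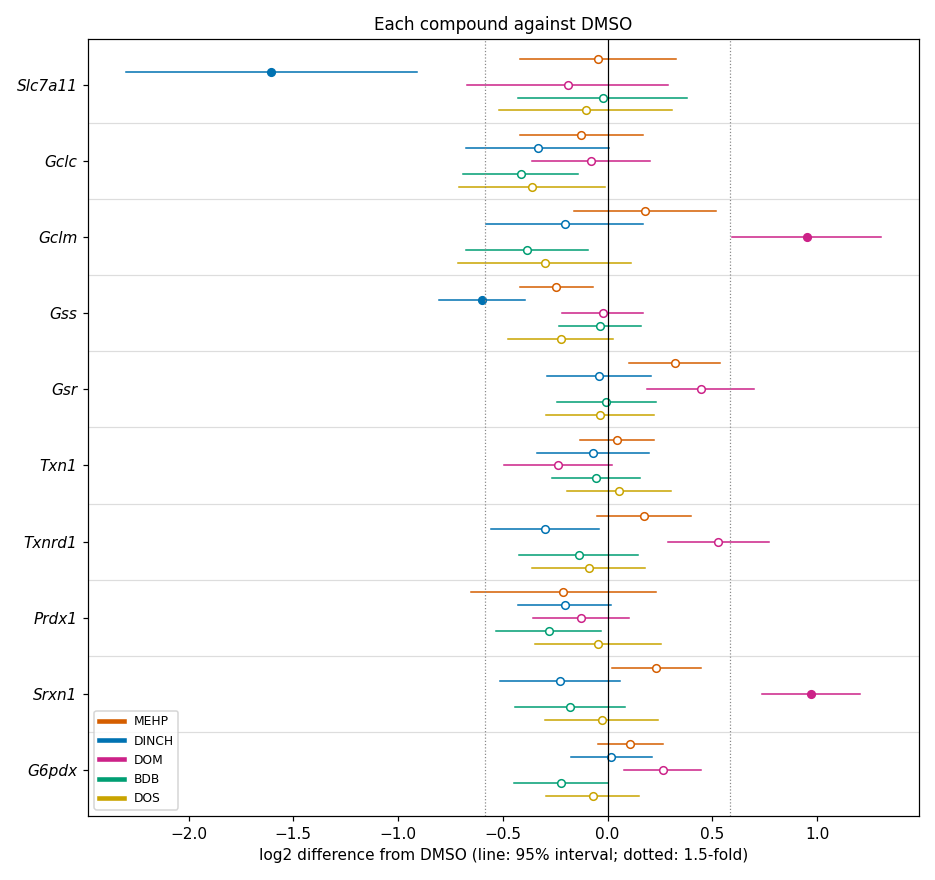
Difference from DMSO (x axis, log2) for each member (y axis) and each compound, with 95% intervals from limma. Filled points were called and open points were not. The called points are Gclm (0.95) and Srxn1 (0.97) for DOM and Slc7a11 (-1.60) and Gss (-0.60) for DINCH.

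Since the 5 compounds were tested against the same DMSO arrays, 5 pairs of compounds were also compared directly at the same dose and time, with p-values adjusted over all probes of each comparison. DOM and DOS are dioctyl esters that differ in the acid, as maleate has a carbon-carbon double bond that succinate lacks, and they shared positions on the slides. DOM was higher in Gclm, Srxn1 and Txnrd1, so 3 of 10 members were called higher and 0 lower, beside 7.15% of all genes called higher and 8.06% lower. Gclm was 0.53, -0.15 and 0.14 in DOS replicates 1, 3 and 4, all below the DOM arrays, a difference of 1.25 (SE 0.20, limma adjusted p = 0.00552). Srxn1 was 4.32, 4.40 and 4.51 in the same arrays, and the difference was 1.00 (SE 0.10, limma adjusted p = 0.00184). Txnrd1 differed by 0.62 (SE 0.10, limma adjusted p = 0.00634).

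Slides 1 and 3 held both DOM and DOS, and within them the difference was 0.98 and 1.14 for Gclm, 1.07 and 0.90 for Srxn1, and 0.61 and 0.70 for Txnrd1. Gsr was 0.48 higher with DOM (limma adjusted p = 0.0226) and G6pdx 0.33 higher (limma adjusted p = 0.0485), both by less than 1.5-fold. For Slc7a11 the maleate and the succinate differed by -0.09, with a 95% interval of -0.54 to 0.37. Gss differed by 0.20 (interval -0.06 to 0.46) and Txn1 by -0.29 (interval -0.60 to 0.02). Gclc was 0.28 higher with DOM (limma adjusted p = 0.134). Without DOS replicate 3 the Txnrd1 call was lost and 2 members were called.

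Against the other compounds DOM was also higher in Gclm and Srxn1. Against MEHP it was higher by 0.77 in Gclm (SE 0.17, limma adjusted p = 0.00741) and by 0.74 in Srxn1 (SE 0.07, limma adjusted p = 0.000209), and 2 members were called higher beside 9.59% of all genes (9.9% lower). Against BDB the differences were 1.34 in Gclm, 1.15 in Srxn1 and 0.67 in Txnrd1, with 3 members called higher beside 14.8% of all genes (12.8% lower), and 2 called without BDB replicate 2, when Txnrd1 was not. Against DINCH they were 1.16 in Gclm, 1.20 in Srxn1, 0.83 in Txnrd1 and 1.41 in Slc7a11, with 4 members called higher beside 11.8% of all genes (11.6% lower). Gss was 0.58 higher with DOM than with DINCH (limma adjusted p = 0.00194) and Gsr 0.49 higher (limma adjusted p = 0.00977), both by less than 1.5-fold. Gclc differed by 0.04 against MEHP, 0.25 against DINCH and 0.33 against BDB (limma adjusted p = 0.762, 0.162 and 0.0163), each under 1.5-fold. Members called lower numbered 0 in each of these 3 comparisons, which share the DOM arrays and in which position and compound cannot be told apart.

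DINCH and MEHP shared positions, and 1 of 10 members was called lower in DINCH and 0 higher, beside 1.22% of all genes called lower and 1.18% higher. This was Slc7a11, whose level was -0.41, -0.49, -0.09 and -0.33 in MEHP replicates 1 to 4, all above the DINCH arrays. The difference was -1.56 (SE 0.28, limma adjusted p = 0.0278), and -2.36, -1.40 and -1.30 within slides 1, 2 and 3. It kept its sign and size but missed the adjusted p threshold (0.0663 to 0.089) when DINCH replicate 4 or any 1 of the 4 MEHP arrays was left out. Txnrd1 differed by -0.47 (limma adjusted p = 0.0383), under 1.5-fold, and Gss by -0.36 (0.0731).

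**Figure D3:**
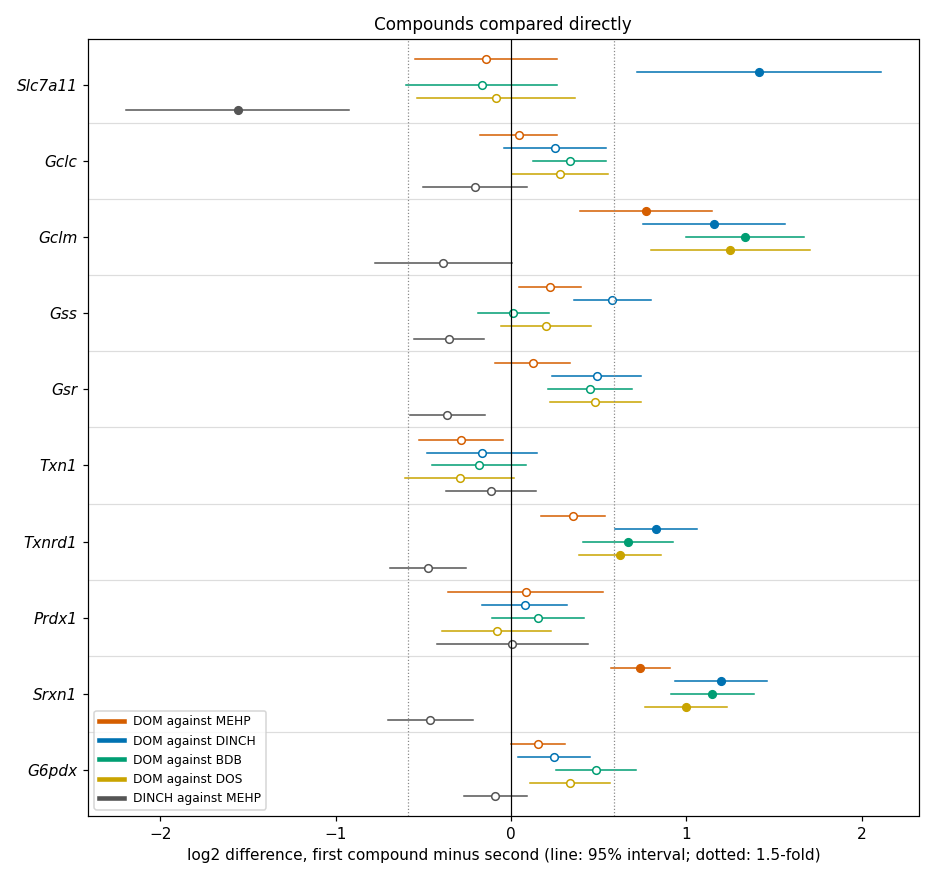
Direct comparisons of compounds at 100 μM and 48 hr, with the log2 difference on the x axis, the members on the y axis and 95% intervals from limma. Filled points were called. Gclm and Srxn1 were higher with DOM than with each of the other 4 compounds, from 0.77 to 1.34 and from 0.74 to 1.20.

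The rest of the 2 systems was read from a list of 57 other genes in 8 roles, of which 52 were tested in the comparisons with DMSO (53 with BDB). Cbs, Ggt1, Ggt5 and Gpx3 were above background on 12, 0, 0 and 0 arrays, and Nnt was not among the named genes. DOM changed 15 of these genes, 9 higher and 6 lower (beside the 9.9% and 10.6% of all genes given above). At any fold, 10 genes of the list were higher with DOM and 15 lower at a limma adjusted p below 0.05, beside 18.9% and 19.8% of all genes. DINCH changed 3, 1 higher and 2 lower, beside 4.25% and 4.02% of all genes. MEHP changed 1, which was higher, beside 1.68% of all genes called in either direction. For BDB and DOS 0 were called by limma. The median difference for DOM over the list was -0.11, with 21 of 52 genes above 0, so the list did not move one way.

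Among the 10 genes of NADPH supply that were tested, DOM raised 4 and lowered 1, beside 9.9% of all genes called higher and 10.6% lower. Pgd, which makes NADPH in the step of the pentose phosphate pathway after G6pdx and Pgls, went from 4.55 ± 0.07 (SD, n = 4) to 5.94 ± 0.13 (SD, n = 4), a difference of 1.39. Idh1, the cytosolic isocitrate dehydrogenase, rose by 0.89, and Me1, the cytosolic malic enzyme, rose by 0.76 on its brightest probe and by 0.62 and 0.74 on its other probes. H6pd rose by 0.59, and Rpia, which works in the non-oxidative branch of the pathway, fell by 0.96. Idh1 was also called for MEHP (0.71, limma adjusted p = 0.00748) and for DINCH (0.73, limma adjusted p = 0.00987). The Idh1 call was lost without the filter on dim probes for MEHP (adjusted p = 0.114) and DINCH (0.0889), and with normexp for MEHP, where the difference was 0.57.

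In cystine and cysteine supply DOM lowered 2 of the 5 genes tested, raised 0 and gave no call for 3, beside 10.6% of all genes called lower. Cth, the cystathionine gamma-lyase that makes cysteine from cystathionine, fell by 2.20 on its brighter probe and by 2.22 on the other, the largest change called in the list. Slc3a2, the heavy chain that pairs with Slc7a11, fell by 0.65 (0.57 lower and not called with normexp), while Slc7a11 itself differed by -0.19. With DINCH, Cth fell by 0.84 and Slc7a11, which serves the other route to cysteine, fell by 1.60 as given above. Sesn2, from the group of peroxiredoxins and sestrins, fell by 0.73 with DINCH and differed by -0.34 with DOM (limma adjusted p = 0.0678). For DINCH, Sesn2 was 1 of 8 tested genes called in that group, and Cth was 1 of 5 in cystine and cysteine supply. For this compound 4.02% of all genes were called lower and 4.25% higher. In glutathione turnover 0 of 7 were called for DINCH. Without the filter on dim probes, Cth and Sesn2 were not called for DINCH.

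In glutathione turnover DOM raised Oplah, the oxoprolinase, by 0.96 and lowered Chac1, which degrades glutathione in the cytosol, by 0.67. In the thioredoxin group Nxn (nucleoredoxin) rose by 0.91 and Txnl1 by 0.80, while Txnrd2, the mitochondrial reductase, fell by 0.60. Its cytosolic counterpart Txnrd1 was 0.53 higher. Sesn1 rose by 0.84, Msrb3 rose by 0.61 and Msra fell by 0.61. Of the glutathione peroxidases 0 of 5 were called, though Gpx4 was 0.53 lower (limma adjusted p = 0.00433) and Gpx1 0.36 lower (limma adjusted p = 0.0177), both by less than 1.5-fold. Of the glutaredoxins 0 of 4 were called, where 9.9% of all genes were called higher and 10.6% lower for DOM. With normexp Oplah, Txnl1, Txnrd2, Msrb3 and Msra lost their calls for DOM, and without the filter on dim probes Chac1, Oplah, Txnl1, Msrb3, Msra and H6pd did.

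**Figure D4:**
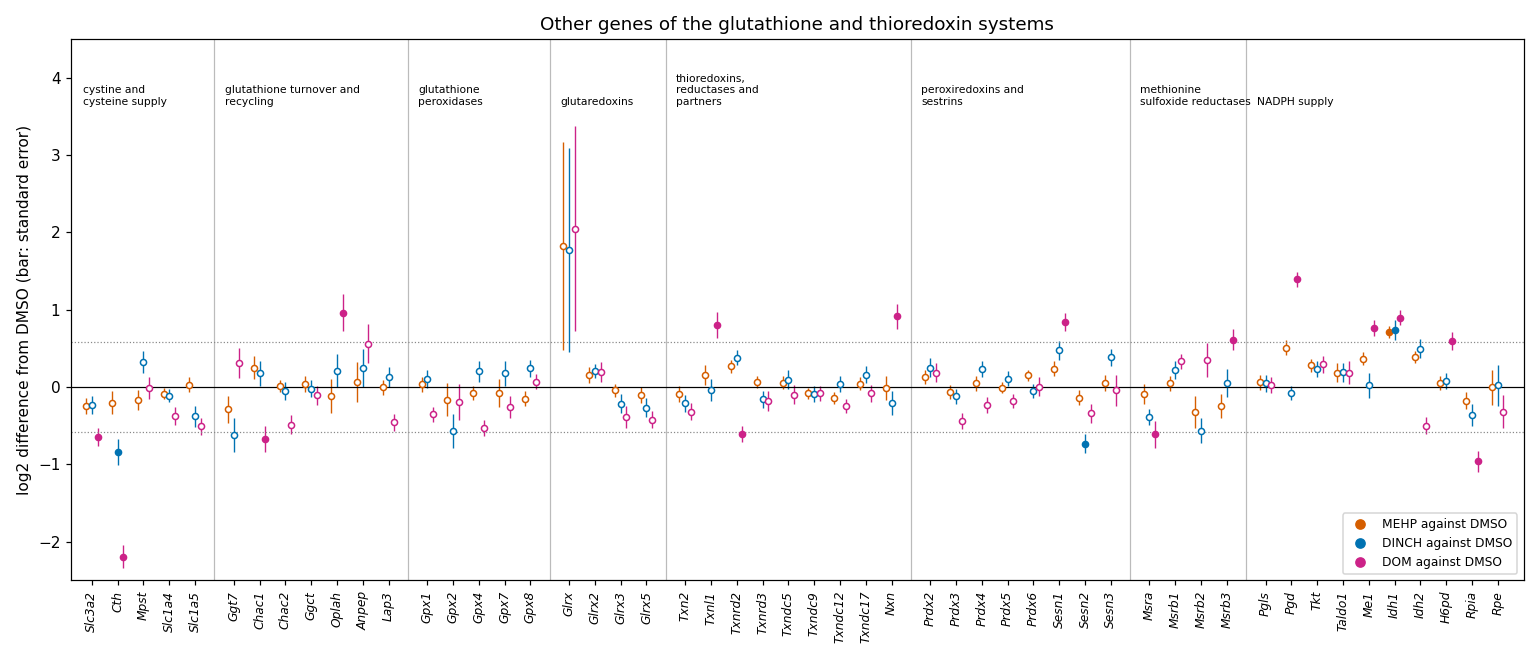
Difference from DMSO (y axis, log2) for the 52 tested genes of the wider list, by role (x axis), with MEHP, DINCH and DOM, bars showing standard errors. Filled points were called and open points were not. For DOM, Pgd (1.39) is the highest and Cth (-2.20) the lowest of the called genes of the list.

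By the pattern of levels over the 23 arrays, the genes closest to Gclm among 12122 compared were Samd4b, Mfap5 and Irgq, with root mean square distances of 0.27, 0.28 and 0.29 after each gene was centred on its DMSO mean. Closest to Srxn1 were Zfp36l1 (0.15), Garnl3 (0.16) and Fetub (0.18), and closest to Txnrd1 were Vwa8 (0.14), Klf6 (0.15) and Dot1l (0.15). Closest to Slc7a11 were Tubb3 (0.35), Ier2 (0.36) and Nab2 (0.38). Of the 12 genes so named, 0 were members.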

How the data were processed

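The authors labelled RNA of 23 TM4 cultures with Cy3, hybridized it to 1-colour Agilent mouse arrays and read the spots with Feature Extraction. The deposited spot intensities are linear and background-subtracted, with no scaling from one array to another. A second deposited file, of log2 values, had been shifted by the authors to each 75th percentile and centred by probe. Each array correlated with its own column of that file (lowest r 0.9996) and with no other column (highest 0.407), and column medians lay between -0.36 and 0.18.

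Here, the log2 of the processed intensity (floor 1) minus the array's 75th percentile was used, without control and outlier spots, and repeated spots were averaged. No member spot was saturated. The number of arrays limits the precision. Of the 23 arrays, 15 met every quality limit recorded for them. The others were replicate 3 of MEHP, BDB and DOS, replicates 3 and 4 of DOM, 1 and 2 of DINCH, and 4 of DMSO. Each array was left out in turn, but their joint part in the results was not tested. RefSeq transcripts named 26582 probes of 20145 genes. Testing was limited to probes well above background, and over the array's 20th percentile, throughout at least 1 of the groups compared. The fits used limma 3.58.1 (R 4.3.3) on the pair of groups compared, with no covariate and with Benjamini-Hochberg adjustment over all tested probes. The script was tested on simulated data. Promoter windows came from RefSeq and were searched in Python 3.11.15, and figures were drawn with matplotlib 3.10.9.

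The members and the wider list were chosen with earlier results of these data known. All members are named, and from the wider list up to 12 called genes for each compound with the largest changes. Every other gene of that list named in the text was chosen after its values were seen. Genes with several probes are represented by the brightest one. Replicate numbers come from the sample labels. Same-numbered arrays deviated together, with every pair above 0.1, for DINCH (0.17 to 0.50), BDB (0.25 to 0.43) and DOS (0.20 to 0.45) against DMSO, for DOM against MEHP (0.19 to 0.61) and for DOM against DOS (0.10 to 0.40). For MEHP (-0.14 to 0.45) and DOM (0.04 to 0.43) against DMSO and for the other direct comparisons, not every pair was above 0.1. In each of these the lowest pair was replicate 2, whose arrays lay on different slides. Whether the pairs follow the slide was not tested. The alternatives were another normalization, background correction, filter, probe choice, variance model or set of values, outlier spots kept, slide, position or replicate as a block, all groups in 1 fit, and each array left out.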

Additional observations from a re-analysis of the deposited data

Results flagged for a closer look

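In 60 groups of 4 arrays, each being 1 probe of a member in 1 group, 2 held an array far from the other 3, where chance gives about 1 in 20. Gss, the glutathione synthetase, had a level of 1.98 in DINCH replicate 3 where the other DINCH arrays lay between 2.16 and 2.17. The dimmer Prdx1 probe had a level of 2.35 in BDB replicate 1 where the other BDB arrays lay between 2.15 and 2.17.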

How the results depend on the processing

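For the members, direction was kept in all called results under every alternative. Gclm and Srxn1 were called for DOM against DMSO in all 12 other settings and with each of the 8 arrays left out. Without a filter on dim probes more probes were tested. Then 0 members were called for DINCH (from 2), 1 for DOM against MEHP (from 2), 1 for DOM against DOS (from 3) and 0 for DINCH against MEHP (from 1, and also 0 with detection on 1 array). In the wider list 0 genes were called without that filter for MEHP (from 1) and for DINCH (from 3) and 9 for DOM (from 15), and with normexp 0 for MEHP and 9 for DOM, where the cause was not tested. With 1 array left out of the comparison with DMSO, member calls ran from 1 to 2 with DINCH and from 2 to 3 with DOM. They ran from 4 to 5 in DOM against DINCH, from 2 to 3 both in DOM against BDB and in DOM against DOS, and from 0 to 1 in DINCH against MEHP. Wider list calls ran from 3 to 5 with DINCH (5 without DMSO replicate 1) and from 11 to 16 with DOM. With the replicate block, Gclm differed by 0.95 (limma adjusted p = 0.00223) and Srxn1 by 0.97 (0.00138) for DOM, and Slc7a11 by -1.60 (0.0295) and Gss by -0.60 (0.0138) for DINCH, and the block changed no member call. Over all genes, the 0 calls for BDB became 42 with normexp, 100 with slide as a block, 82 with a variance trend and 120 with all groups in 1 fit, and the 0 for DOS became 2 with normexp and 8 without DOS replicate 3, while 0 members were called in any of these.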

Other observations

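Glrx, a cytosolic glutaredoxin of the wider list, had a level of -6.22 in DMSO replicate 4, the only array of 23 on which it was not well above background, and between 0.21 and 0.88 on the other 22. It was chosen after its values were seen. Its difference for DOM was 2.05 (SE 1.32, limma adjusted p = 0.268) with that array and 0.41 (SE 0.12, limma adjusted p = 0.0355) without it, and its differences for MEHP, DINCH, BDB and DOS went from 1.82, 1.77, 1.66 and 1.72 to 0.18, 0.14, 0.03 and 0.08.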
